A study of Homo sapiens with 8 samples.

Results

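SOX genes encode transcription factors that bind DNA through a shared HMG box. The 10 family members examined here, SOX2, SOX4, SOX5, SOX6, SOX7, SOX8, SOX9, SOX11, SOX12 and SOX13, were found by their gene symbol in a table of read counts for 30434 genes. Of the 10 members, 9 had a row, and the expression of SOX5 was not analysed here. RNA came from SKBR3, a human breast cancer cell line with amplified ERBB2 (HER2), grown in DMEM with serum. The 4 control libraries carried the label WT. The 4 knockdown libraries came from SKBR3 cells made stable for short hairpin RNAs against the pioneer factor FOXA1, for which 3 hairpins were delivered by lentivirus. The labels do not state which hairpin each library carried, whether the cells were a pool or 1 clone, or whether the controls had received a control vector. Nothing states that replicates came from separate cultures, so p-values measure the spread between these libraries, which may be technical. The series asked whether FOXA1 is needed for ERBB2 expression and luminal differentiation.

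The HMG box bends DNA by binding in the minor groove, and SOX factors usually act together with partner factors on nearby sites. The family is divided by sequence into groups. SOX2 belongs to SOXB1, SOX4, SOX11 and SOX12 form SOXC, SOX5, SOX6 and SOX13 form SOXD, SOX8 and SOX9 belong to SOXE, and SOX7 belongs to SOXF with SOX18. In the mammary gland SOX9 is known as a factor of stem and luminal progenitor cells, and SOX4 is known in breast cancer as a factor of the TGF-beta response.

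Library totals ran from 19087878 to 23786684 counts. Levels are given as CPM, which are counts per 1000000 of the library total, scaled by TMM. Every ± gives the SD over the libraries of a group, with n = 4. A value of 3 counts corresponded to 0.123 to 0.153 CPM. FOXA1 itself was at 191.2, 192.2, 193.1 and 189.2 CPM across the controls, replicates 1 to 4, against 3.78, 3.56, 4.22 and 4.25 CPM across the knockdown replicates in the same order, so 2.06% was left and the transcript was low in every library labelled knockdown. All 9 markers of HER2-amplified breast epithelium had a mean over 1 CPM in both groups, and their summed level was 19100 to 21200 CPM in control and 12000 to 12900 CPM in knockdown. ERBB2 left 18.3% of its control level. Marker lists of other cell types summed to far less. The 5 endothelial markers gave 20.7 to 22.2 CPM in control and 19.8 to 22.4 CPM in knockdown, and the 5 cartilage markers gave 0.379 to 0.640 CPM and 0.277 to 1.12 CPM. The 5 fibroblast markers with a row summed to 5.26 to 6.97 CPM in control and 10.8 to 11.9 CPM in knockdown. Of the neural crest and melanocyte markers, PMEL rose from 1.10 to 13.5 CPM and MITF fell from 5.95 to 1.32 CPM (edgeR adjusted p of 1.47e-19 and 3.56e-13). The 4 leukocyte markers with a row summed to 4.98 to 6.33 CPM and 0.785 to 1.78 CPM. KDR, an endothelial marker, was at 0 in control. Among the fibroblast markers COL3A1 went from 0.0222 to 4.31 CPM and COL1A1 from 5.38 to 4.32 CPM. The part of these genes in the SOX results was not tested.

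SOX9 and SOX11 were nearly lost with FOXA1 knockdown and SOX7 fell, while SOX6 rose from a low level. The 3 abundant members changed by less: SOX12 rose, SOX4 rose slightly and SOX13 fell. The edgeR quasi-likelihood test, adjusted after Benjamini and Hochberg for the 16430 genes that entered it, called 12675 of them (77.1%) at a threshold of 0.05. Of the 10 members, 7 passed the filter on low counts, and all 7 of these were called, 3 higher and 4 lower. Over all genes, 39.4% were called higher and 37.7% lower. Changes of at least 2-fold were called for SOX6 among the rises and for SOX7, SOX9 and SOX11 among the falls, against 28.3% of all genes tested. The median size of the log2 fold change was 1.11 over the 7 members and 0.51 over all genes tested. SOX6, SOX7, SOX9 and SOX11 passed the filter only through the group where they were higher. The 2-fold calls and the median of 1.11 carry that selection. The 3 abundant members were well expressed in both groups. In the main fit they were at 0.48 (SOX12), 0.16 (SOX4) and -0.37 (SOX13), each smaller in size than 0.51. Over the alternative settings SOX12 ran from 0.45 to 0.63, and the median of 0.51 was not recomputed for these. None of the 7 had overlapping CPM between groups, which held for 72.0% of all genes tested. For each of the 7, an exact two-sided permutation test over the 70 divisions of the libraries gave p = 0.0286, the lowest value possible with these group sizes. That value follows from the lack of overlap and adds nothing to it. In bulk RNA, fewer cells with a transcript and less transcript per cell cannot be told apart.

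**Figure D1:**
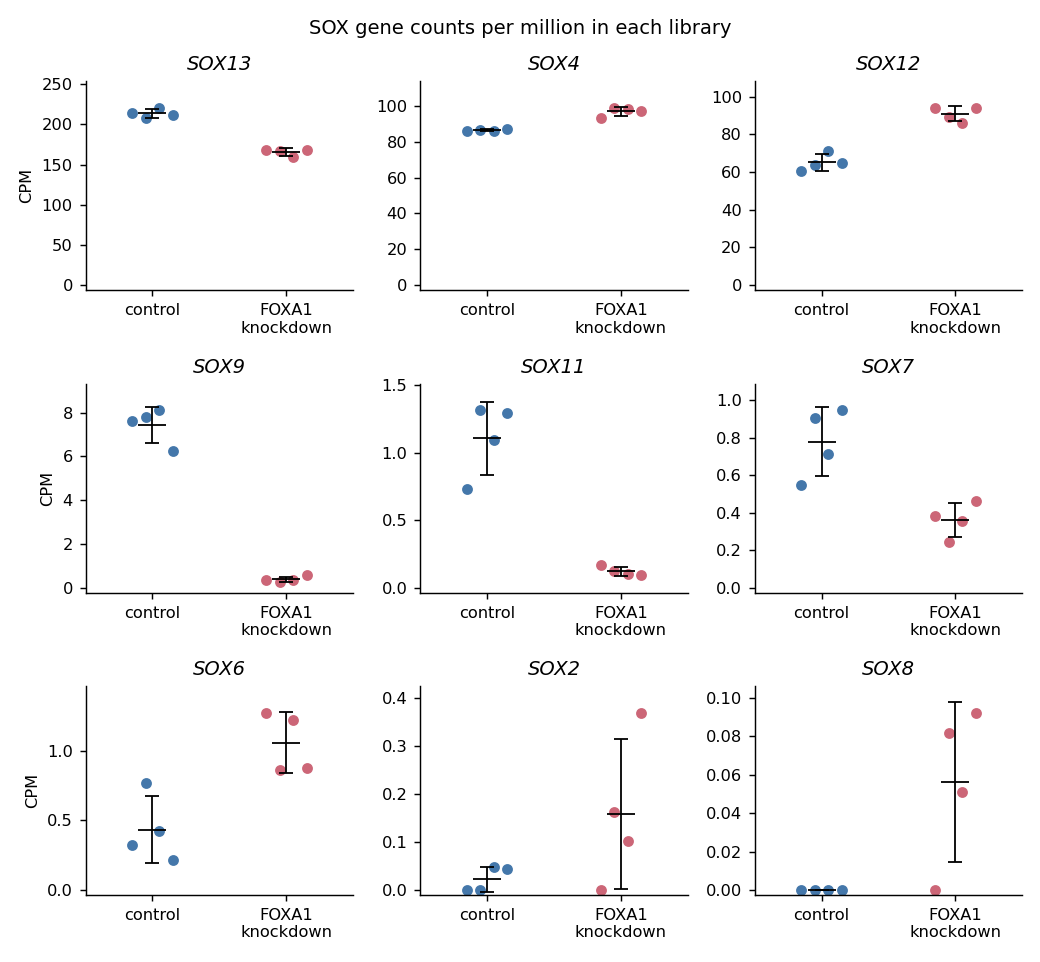
CPM of the 9 SOX genes in each of the 4 control and 4 FOXA1 knockdown libraries (points), with the group mean and SD (black). Each panel has its own scale. SOX9 and SOX11 sit near 0 in knockdown, while SOX13, at 208 to 221 CPM in control and 159 to 169 CPM in knockdown, is the highest.

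SOX13 was the most abundant member. It encodes a SOXD factor, a group without a known activation domain of its own that dimerises through a coiled coil, and SOX13 is known to bind TCF factors. Its CPM was 214.2, 207.9, 220.7 and 211.3 across the controls, replicates 1 to 4, against 168.6, 166.6, 159.0 and 168.4 across the knockdown replicates in the same order. Every knockdown library lay below every control library, and 77.6% of the control level was left. The log2 fold change was -0.37 (SE 0.0270, adjusted p of 5.13e-10 by edgeR). SOX13 lies on chromosome 1, 204073115 to 204127743, plus strand (GENCODE 29, GRCh38), and overlaps no other gene of that annotation.

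The other abundant members belong to SOXC. SOX12 lies on chromosome 20, 325595 to 330224, plus strand, and encodes the weakest activator of the SOXC group. It was at 60.69, 63.65, 71.18 and 64.94 CPM across the controls, replicates 1 to 4, against 94.1, 89.3, 86.2 and 94.2 CPM across the knockdown replicates in the same order. The groups were well apart, and SOX12 rose 1.40-fold, with a log2 fold change of 0.48 (SE 0.0574, adjusted p of 9.36e-10 by edgeR). The antisense gene NRSN2-AS1 spans SOX12 on the opposite strand without sharing exons in GENCODE 29. NRSN2-AS1 had a mean of 11.4 CPM ± 0.465 without and 10.5 CPM ± 0.914 with knockdown, and its log2 fold change of -0.11 had an edgeR adjusted p of 0.186, above the threshold.

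SOX4, known for roles in B cell and neural development and often raised in carcinomas, changed least. Its CPM was 86.25, 86.72, 85.93 and 86.93 across the controls, replicates 1 to 4, against 93.1, 99.0, 98.4 and 96.9 across the knockdown replicates in the same order. All knockdown libraries were above all controls, a 1.12-fold rise with a log2 fold change of 0.16 (SE 0.0202, adjusted p of 0.000315 by edgeR). That size was larger than in only 18.5% of all genes tested. SOX4 lies on chromosome 6, 21592768 to 21598619, plus strand, and shares exon sequence with the antisense gene AL512380.2, which had a mean of 1.12 counts. The 50 nearest tested genes had a median log2 fold change of 0.11. With that regional shift taken out, SOX4 was at 0.05 and lost its call, with an edgeR adjusted p of 0.207. With library size only as the scaling, its log2 fold change was 0.25.

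Sequence just before the start site is shown for SOX12 and SOX13, the abundant members with the clearest rise and fall, and for 1 of the 5 start sites of SOX6, chosen because it held the most motif matches and was the only SOX6 window with the forkhead core. RefSeq promoters on GRCh38.p14 held entries for 6 of the 10 members, SOX2, SOX4, SOX5, SOX6, SOX12 and SOX13, with 10 start sites in all. SOX7, SOX8, SOX9 and SOX11 had no entry and were not searched. The 250 bases before each start were searched on both strands for the forkhead core TGTTTAC, the SOX cores AACAAT and ACAAAG, the octamer ATGCAAAT bound by POU factors, CCAAT and TATAAA. Matches are in capitals, and neighbouring matches can run together. The windows are chr20:325302-325551 (plus strand) for SOX12, chr1:204072865-204073114 (plus strand) for SOX13 and chr11:16356547-16356796 (minus strand) for SOX6.
SOX12: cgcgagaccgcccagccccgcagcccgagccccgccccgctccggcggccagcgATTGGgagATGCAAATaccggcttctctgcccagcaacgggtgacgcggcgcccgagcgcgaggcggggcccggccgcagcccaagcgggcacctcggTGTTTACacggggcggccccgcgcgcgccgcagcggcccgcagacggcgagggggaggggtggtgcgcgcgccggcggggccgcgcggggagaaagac
SOX13: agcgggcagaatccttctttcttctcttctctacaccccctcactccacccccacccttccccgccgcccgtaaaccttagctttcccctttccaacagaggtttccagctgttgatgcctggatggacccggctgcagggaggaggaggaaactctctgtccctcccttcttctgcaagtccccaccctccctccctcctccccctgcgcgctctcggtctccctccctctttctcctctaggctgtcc
SOX6: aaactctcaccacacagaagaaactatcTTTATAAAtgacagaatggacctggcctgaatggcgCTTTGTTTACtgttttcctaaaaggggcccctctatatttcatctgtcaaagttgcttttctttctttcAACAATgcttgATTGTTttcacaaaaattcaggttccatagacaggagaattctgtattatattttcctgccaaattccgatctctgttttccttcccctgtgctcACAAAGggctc
The SOX12 window held TGTTTAC 98 bases before the start, ATGCAAAT 188 bases before it and CCAAT on the other strand 196 bases before it. Over 35116 start sites, 2.98% of windows held TGTTTAC, 1.63% held ATGCAAAT and 32.0% held CCAAT. SOX12 had 42 CG dinucleotides in 250 bases and a GC content of 79.2%, against medians of 11 and 58% over all start sites. The SOX13 window, with a GC content of 60.8%, held none of the 6 motifs. In the SOX6 window TGTTTAC lay 183 bases before the start and ran together with ACAAAG on the other strand, and AACAAT occurred on both strands, 117 and 106 bases before the start. It also held ACAAAG 11 bases before the start, and TATAAA on both strands 220 and 222 bases before it. AACAAT was in 8.98%, ACAAAG in 13.7% and TATAAA in 10.7% of all windows. Among the 10 start sites searched, TGTTTAC was found only in these windows of SOX12 and SOX6. This says nothing of SOX7, SOX8, SOX9 and SOX11, which were not searched. These matches are letters in a window and no measured binding.

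SOX9 had the largest log2 fold change in size among the 7 tested members. It encodes the SOXE factor that drives cartilage formation and is required in many epithelial progenitor cells. Across the controls, replicates 1 to 4, it had 166, 172, 171 and 145 counts, against 8, 6, 7 and 12 across the knockdown replicates. In CPM this was 7.43 ± 0.824 in control and 0.374 ± 0.130 in knockdown, so 5.03% of the control level was left. The log2 fold change was -4.31 (SE 0.245, adjusted p of 5.5e-17 by edgeR), a size larger than that of 94.1% of genes tested. The ratio of summed counts was 0.0499, with a 95% exact interval of 0.0340 to 0.0707 that covers counting error only. SOX9 lies on chromosome 17, 72121020 to 72126420, plus strand, inside an intron of SOX9-AS1 on the opposite strand, which averaged 8.50 counts per library. SOX8, the other SOXE member (chromosome 16, 981808 to 986979), was at 0 counts throughout the controls, while knockdown replicates 1 to 4 held 0, 2, 1 and 2. Both groups were at or under 3 counts per library, so no fold is given. A total of 0 counts allows up to 0.0340 CPM over the control libraries together.

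SOX11 also fell, from a lower level than SOX9. It is the SOXC factor of neuronal differentiation, known also as a diagnostic marker of mantle cell lymphoma. It gave 16, 29, 23 and 30 counts across the controls, replicates 1 to 4, against 4, 3, 2 and 2 across the knockdown replicates, and no knockdown library came near the controls. Mean SOX11 was 1.11 CPM ± 0.270 without and 0.122 CPM ± 0.0345 with knockdown, the latter close to the value of 3 counts. The log2 fold change was -3.11 (SE 0.248, adjusted p of 1.55e-08 by edgeR), and summed counts gave a 9.01-fold fall (95% exact interval 4.82 to 18.7, counting error only). SOX11 lies on chromosome 2, 5692667 to 5701385, plus strand, and shares exon sequence on the same strand with a noncoding gene of GENCODE 29 that was not analysed here. The 3 SOXC genes moved in different directions: SOX11 was down, SOX12 up and SOX4 only slightly up.

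SOX7, a SOXF factor of endothelial development that restrains WNT signalling, was low throughout. It gave 12, 20, 15 and 22 counts across the controls, replicates 1 to 4, against 9, 6, 7 and 10 across the knockdown replicates, groups that came close without overlapping in CPM. Mean SOX7 was 0.778 CPM ± 0.184 without and 0.361 CPM ± 0.0895 with knockdown, with a log2 fold change of -1.11 (SE 0.253, adjusted p of 0.00191 by edgeR). Summed counts gave a 2.18-fold fall (95% exact interval 1.42 to 3.43, counting error only). SOX7 lies on chromosome 8, 10723768 to 10730512, minus strand. A gene also named PINX1 shares exons with it on the same strand and had a mean of 1.5 counts, so the assignment of reads there is uncertain.

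SOX6 went the other way. It is a SOXD factor that works with SOX9 in cartilage and represses embryonic globin in red cells. It gave 7, 17, 9 and 5 counts across the controls, replicates 1 to 4, against 30, 21, 24 and 19 across the knockdown replicates. Control replicate 2, at 0.771 CPM, was the nearest to the knockdown libraries, of which the lowest was at 0.859 CPM. The mean went from 0.433 CPM ± 0.241 to 1.06 CPM ± 0.220, with a log2 fold change of 1.28 (SE 0.396, adjusted p of 0.000634 by edgeR). SOX6 lies on chromosome 11, 15966449 to 16739591, minus strand, and 126460 bp of it overlap C11orf58 on the opposite strand, with exons that touch. C11orf58 averaged 3648 counts per library. It was lower in knockdown, at 149.4 CPM ± 5.44 against 179.3 CPM ± 3.33. The sources do not say if strand entered the counting, so the low SOX6 counts are uncertain.

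SOX2, the SOXB1 factor of pluripotent and neural stem cells, was barely detected. It gave 0, 0, 1 and 1 counts across the controls, replicates 1 to 4, against 0, 4, 2 and 8 across the knockdown replicates. The groups overlapped at 0, and knockdown replicate 4 alone held 8 of the 14 knockdown counts. The ratio of summed counts was 6.92 (95% exact interval 1.59 to 62.7, counting error only), and the exact two-sided permutation test gave p = 0.200. SOX2 (chromosome 3, 181711924 to 181714436) and SOX8 did not pass the filter. Without any filter, edgeR called both higher, with adjusted p of 0.0183 for SOX2 and 0.0498 for SOX8, while DESeq2 gave an adjusted p of 0.114 for SOX2 and none for SOX8.

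**Figure D2:**
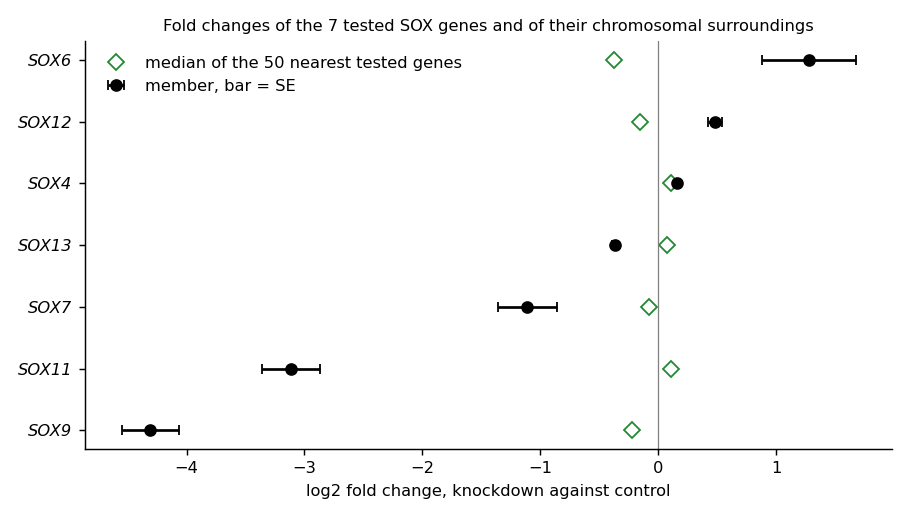
Log2 fold change of the 7 tested SOX genes, knockdown against control, with the SE from the spread of log2 CPM (bars), and the median of the 50 nearest tested genes on the same chromosome (diamonds). SOX4 at 0.16 lies beside its surroundings at 0.11, while SOX9 at -4.31 and SOX11 at -3.11 lie far from theirs.

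Levels of different genes can be compared only per length, so CPM was divided by the summed length of each gene's exons in kilobases. In control, SOX13 was highest at 28.8 ± 0.732 CPM per kilobase, followed by SOX4 at 14.8 ± 0.0773 and SOX12 at 14.1 ± 0.955, and the last pair did not differ beyond their spread. SOX9 came next at 1.89 ± 0.210. SOX7 at 0.242 ± 0.0573 and SOX11 at 0.127 ± 0.0309 followed, and SOX6 at 0.0221 ± 0.0123 and SOX2 at 0.00900 ± 0.0104 were within each other's spread, with SOX8 at 0. In knockdown the order was SOX13 at 22.3 ± 0.607, SOX12 at 19.6 ± 0.841 and SOX4 at 16.6 ± 0.451 CPM per kilobase. SOX7 at 0.112 ± 0.0278 and SOX9 at 0.0950 ± 0.0330 then overlapped, as did SOX2 at 0.0632 ± 0.0621 and SOX6 at 0.0539 ± 0.0112, and SOX11 and SOX8 were lowest at 0.0140 ± 0.00396 and 0.0127 ± 0.00935. Among 13278 tested protein-coding genes ranked by CPM per kilobase, SOX13 went from rank 1546 to 1953, SOX12 from 3209 to 2245, SOX4 from 3069 to 2657 and SOX9 from 9111 to 12700.

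The summed level of the 9 members was nearly the same in both groups, at 59.9 ± 1.57 CPM per kilobase in control and 58.9 ± 1.22 in knockdown, but its make-up differed. SOX13 made up 48.05% ± 0.656 of it in control and 37.95% ± 0.387 in knockdown. SOX12 went from 23.45% ± 1.03 to 33.4% ± 0.854, and SOX4 from 24.7% ± 0.718 to 28.1% ± 1.13. SOX9 supplied 3.15% ± 0.324 in control and 0.161% ± 0.0535 in knockdown. The ratio of SOX12 to SOX4 per kilobase lay between 0.889 and 1.05 in control and between 1.11 and 1.28 in knockdown. That of SOX12 to SOX13 lay between 0.454 and 0.517 in control and between 0.859 and 0.896 in knockdown. Shares depend on the length used for SOX13: with the longest transcript in place of all exons, SOX13 took 65.65% ± 0.603 in control and 55.77% ± 0.403 in knockdown, and the sum went from 90.7 ± 2.28 to 82.8 ± 1.84 CPM per kilobase.

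**Figure D3:**
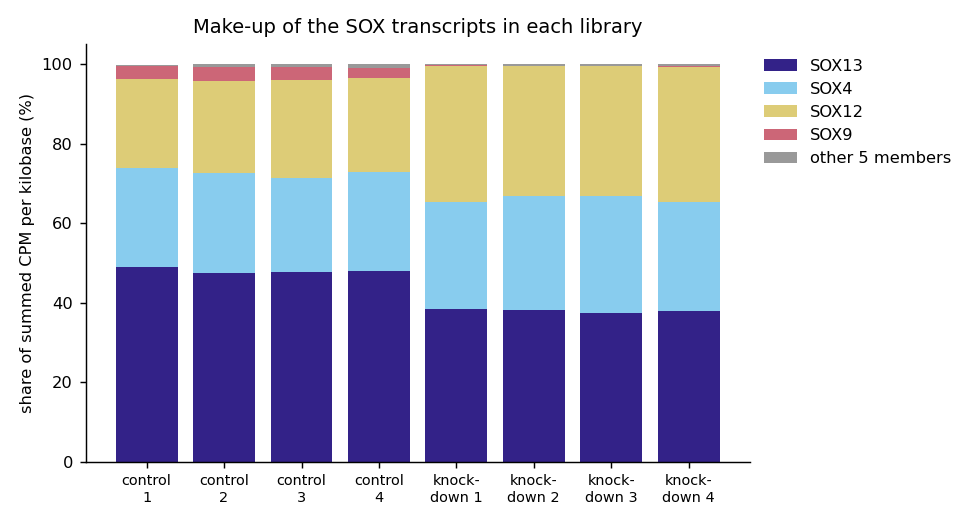
Share of each SOX gene in the summed CPM per kilobase of the 9 members, for each of the 8 libraries (stacked bars, in percent). SOX13 takes 47.5% to 49.0% in control and 37.5% to 38.4% in knockdown, SOX12 takes more in every knockdown library, and the SOX9 band of 2.67% to 3.36% shrinks to 0.106% to 0.234%.

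Chromosomal surroundings were set beside each member to show the local background. Over all genes tested, 39.4% were called higher and 37.7% lower. For 6 of the 7 tested members the difference from the median of the 50 nearest tested genes kept the direction of the change at over 0.4 on the log2 scale, and for SOX4 it was 0.05. SOX6 rose among genes that mostly fell: of its 10 nearest tested protein-coding genes, 9 were called lower and 1 higher, with a median of -0.44, and its neighbours CYP2R1 and C11orf58 were at -1.81 and -0.26. SOX12 had its neighbour ZCCHC3, 25.3 kb away, also higher, from 48.6 CPM ± 3.08 to 81.4 CPM ± 3.07. On its other side NRSN2, 16.6 kb away, fell from 8.62 CPM ± 0.725 to 0.822 CPM ± 0.0874 (adjusted p of 1.97e-17 by edgeR). SOX13 stood between SNRPE, at a log2 fold change of 0.96, and ETNK2, only 3.32 kb away, at -1.34. SOX4 lay among genes that mostly rose, with 8 of 10 called higher, although its nearest tested neighbour CDKAL1 was at 0.02 (edgeR adjusted p of 0.790). Around SOX11, 4 neighbours were higher and 5 lower, with COLEC11 at -1.09 and RNF144A at 1.20 on either side. Around SOX7, 2 were higher and 5 lower, with MSRA at 3.33 and PINX1 at -0.10. The counts were 2 higher and 5 lower of 10 around SOX9, 2 and 5 of 7 around SOX12, and 5 and 3 of 10 around SOX13. SOX9 lies in a stretch with few tested genes, with KCNJ2 1940 kb away on one side and SLC39A11 520 kb away on the other. KCNJ2 rose from 0.0226 CPM ± 0.0262 to 1.19 CPM ± 0.196, and SLC39A11 fell from 85.1 CPM ± 1.21 to 36.3 CPM ± 1.28. KCNJ2, and MSRA at 0.259 CPM in control, passed the filter on low counts only through the knockdown libraries. Their place as nearest tested neighbours and the neighbour counts that hold them carry that selection.

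**Figure D4:**
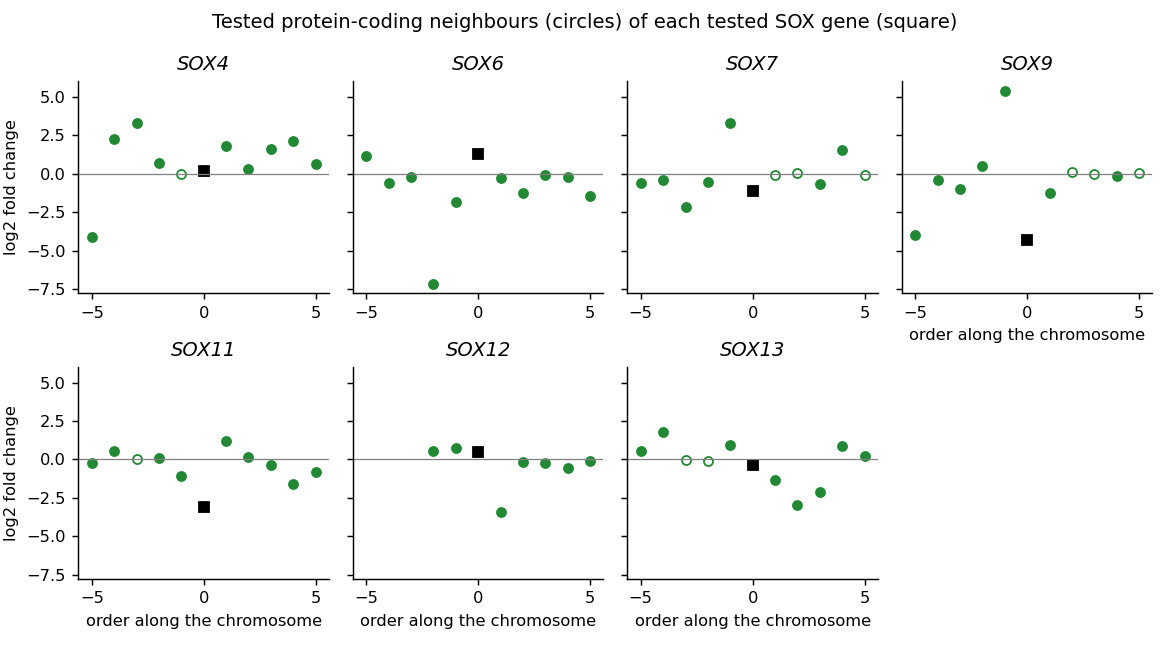
Log2 fold change of each tested SOX gene (square, position 0) and of up to 5 tested protein-coding genes on either side (circles, in order along the chromosome, filled where the adjusted p was under 0.05). SOX6 lies above all 10 of its neighbours shown, of which 9 fell, and SOX9 and SOX11 lie below all 10 of theirs.

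Of 9 other SOX genes looked for, 4 had a row and 3 were tested, of which 1 was called. SOX18, the SOXF partner of SOX7 in endothelial and lymphatic development, gave 0, 0, 1 and 1 counts across the controls, replicates 1 to 4, against 133, 144, 96 and 136 across the knockdown replicates. Its level went from 0.0226 CPM ± 0.0262 to 5.68 CPM ± 0.591 (adjusted p of 2.24e-17 by edgeR). The ratio of summed counts was 251 (95% exact interval 69.3 to 2080, counting error only). SOX18 passed the filter on low counts only through the knockdown libraries, so its call carries that selection. The measured levels of SOX7 and SOX18, both SOXF, moved in opposite directions, each tested only through the group where it was higher. The part of other cell types was not tested. Of the 5 endothelial markers, CDH5 rose from 16.1 to 20.05 CPM and VWF fell from 5.21 to 0.844 CPM (edgeR adjusted p of 6.28e-05 and 3.31e-13). The other 3 did not pass the filter, with PECAM1 at 0.149 and 0.0819 CPM, TEK at 0.0455 and 0.0908 CPM, and KDR at 0 and 0.143 CPM. SOX15 (0.462 and 0.576 CPM) and SOX30 (0.521 and 0.511 CPM) missed the threshold, at edgeR adjusted p of 0.332 and 0.956, and SOX10 had 3 counts over all control and 5 over all knockdown libraries.

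The lists below stand beside the whole table, in which 39.4% of genes were called higher, 37.7% lower, and the median log2 fold change was 0.02. They were chosen with earlier results of these data known, so their counts and medians are no test against the whole table. TCF/LEF factors, which carry a related HMG box and work with beta-catenin, had 3 of 4 genes tested, 2 higher and 1 lower. TCF7L1, a repressor of WNT targets, fell from 24.6 CPM ± 1.72 to 1.91 CPM ± 0.438, TCF7L2 rose from 21.1 CPM ± 0.718 to 39.8 CPM ± 0.897, and TCF7 rose from 0.599 CPM ± 0.156 to 2.76 CPM ± 0.416. The log2 fold change of TCF7 was 2.19, and 1.11 with the regional shift taken out. LEF1 had 1 count over each group. Of 20 other HMG-box genes, 17 were tested, 12 higher and 4 lower with a median of 0.18. Among the tested genes the largest changes were BBX at 1.87, the mitochondrial DNA factor TFAM at 1.09 and the chromatin protein HMGB2 at 0.73. With the regional shift taken out TFAM was at 0.52. TOX2, which did not pass the filter and is named after its values were seen, had 1 count over the control and 52 over the knockdown libraries.

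Known targets of SOX factors were taken from 2 lists. Of 10 cartilage genes driven by SOX9 with SOX5 and SOX6, 3 were tested. COL9A3 rose from 1.12 CPM ± 0.222 to 47.2 CPM ± 1.44 and COL9A2 fell from 34.9 CPM ± 1.35 to 17.2 CPM ± 1.02, both encoding chains of collagen IX. HAPLN1 was at 0.397 and 0.432 CPM (adjusted p of 0.813 by edgeR), and the central targets COL2A1 and ACAN had at most 8 counts over a group. Of 6 genes reported as SOX4 or SOX11 targets in other cells, 5 were tested and all 5 were called higher, with a median of 4.07. PDGFA, a growth factor, rose from 0.837 CPM ± 0.258 to 52.4 CPM ± 3.13, the chemokine receptor CXCR4 from 0.158 CPM ± 0.0532 to 3.965 CPM ± 0.606, and the neuronal tubulin TUBB3 from 1.03 CPM ± 0.299 to 17.4 CPM ± 1.08. CXCR4 passed the filter on low counts only through the knockdown libraries, so the count of 5 and the median of 4.07 carry that selection. The other called genes of that list, named after their values were seen, were TEAD2 at a log2 fold change of 2.41 and EZH2 at 0.35. Beside them stand a fall of SOX11 and a log2 fold change of 0.16 for SOX4.

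Of 13 genes of the SOX2 network in stem cells, 10 had a row and 5 were tested, 3 higher and 1 lower with a median of 1.57. PROM1 rose from 2.11 CPM ± 0.335 to 10.45 CPM ± 0.321, SALL4 from 0.573 CPM ± 0.319 to 2.345 CPM ± 0.337 and LIN28A from 0.2275 CPM ± 0.0683 to 0.686 CPM ± 0.0694. LIN28A passed the filter on low counts only through the knockdown libraries, and SALL4 would not have passed on the controls alone. The count of 3 higher and the median of 1.57 carry that selection. KLF4 was at a log2 fold change of -0.57. POU5F1, the partner of SOX2, was at 1.33 and 1.35 CPM (adjusted p of 0.928 by edgeR), and NANOG had 20 counts over all control and 12 over all knockdown libraries.

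Mammary progenitor markers, a list chosen for the known role of SOX9 there, had 5 of 7 genes tested, 3 lower and 2 higher, with a median of -0.80. ELF5, a factor of alveolar progenitors, fell from 8.01 CPM ± 1.07 to 0.195 CPM ± 0.0818, and ALDH1A3, an aldehyde dehydrogenase of luminal progenitors, from 115.6 CPM ± 2.19 to 7.77 CPM ± 0.722. ITGA6, an integrin of basal and stem cells, rose from 0.2245 CPM ± 0.0981 to 162.9 CPM ± 4.02. ELF5 passed the filter on low counts only through the controls and ITGA6 only through the knockdown libraries. The counts called on this list carry that selection. The other called genes of the list, named after their values were seen, were CD44 at a log2 fold change of 2.99 and SLPI at -0.80. KIT and SNAI2 had at most 13 counts over a group.

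The last list held genes for proteins that bind, modify or degrade SOX factors. All 15 were tested, 8 higher and 2 lower with a median of 0.16, and 5 were not past the threshold, among them FBXW7, which marks SOX9 for degradation, at -0.07, and HUWE1 at 0.04. SDCBP, which encodes the SOX4 binding protein syntenin, rose from 30.5 CPM ± 1.11 to 84.9 CPM ± 0.936. SETD7, a methyltransferase that acts on SOX2, fell from 264.6 CPM ± 4.40 to 119.7 CPM ± 2.90, and POU2F1, which binds the octamer, rose from 31.4 CPM ± 1.09 to 56.5 CPM ± 4.68. CTNNB1, the beta-catenin gene, was at a log2 fold change of 0.45.

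**Figure D5:**
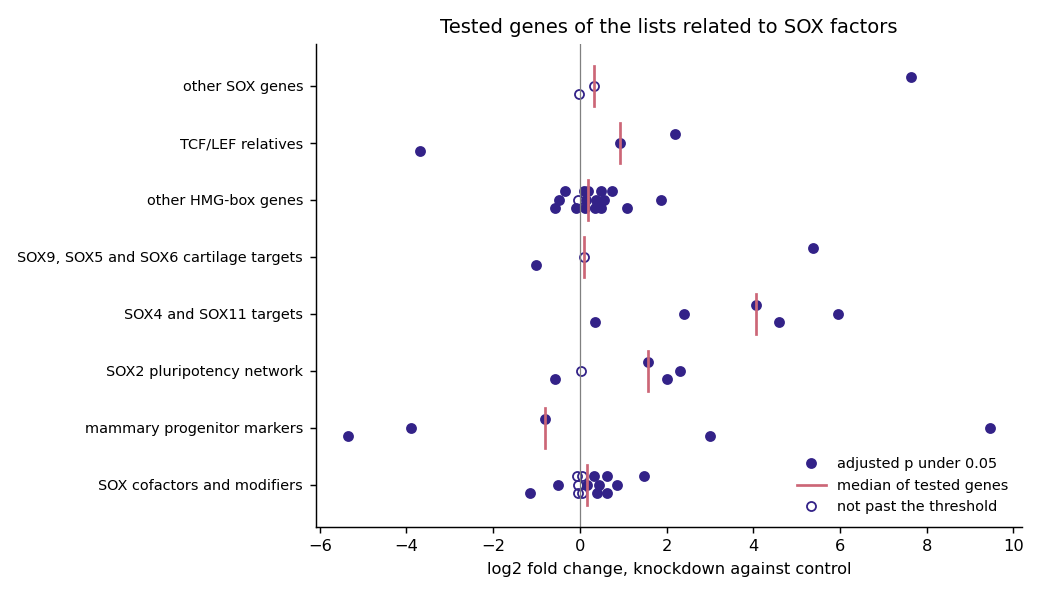
Log2 fold change, knockdown against control, of every tested gene in the 8 lists related to SOX factors (filled where the adjusted p was under 0.05, open otherwise), with the median of each list (vertical bar). The 5 tested SOX4 and SOX11 targets lie at 0.35 or above, while the medians of cofactors and other HMG-box genes are 0.16 and 0.18. All lists were chosen with earlier results of these data known, and some genes passed the filter on low counts only through the group where they were higher.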

How the data were processed

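RNA extracted with Trizol from 4 control and 4 FOXA1 knockdown libraries of SKBR3 cells was sequenced on an Illumina NextSeq as paired reads of 101 bp, per the labels' protocols. The authors deposited whole-number raw counts per gene under Ensembl identifiers with a symbol column. The submitters' processing notes name the hg38 build, FastQC, Salmon 1.9 and DESeq2, without their roles. If Salmon made the counts they are rounded estimates, in which reads shared by overlapping genes are split by a model; strand and annotation release are not given in the sources used here.

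Groups came from the sample titles, and members from the symbol column. The members and gene lists were chosen with earlier results of these data known. Positions and exon lengths came from GENCODE 29 (GRCh38), matched for 96.5% of identifiers. In R 4.3.3, edgeR 4.0.16 kept 16430 genes (filterByExpr, minimum of 10 counts, total of 15) and removed 14004, scaled by TMM, and tested by glmQLFit (robust) and glmQLFTest with Benjamini-Hochberg adjustment. Standard errors come from the spread of log2 CPM with 0.5 added to each count. Named genes are all members, FOXA1, ERBB2, the 3 largest called changes of each list, and the nearest tested protein-coding gene on each side of a tested member; other genes were named after their values were seen. The summed level of the neural crest and melanocyte markers is not reported here. No pair of replicates agreed within sampling noise (chi-square per degree of freedom at least 2.10). Counts of genes called, and log2 fold changes of tested members, FOXA1, ERBB2 and the named list genes, were recomputed under 18 alternatives. These were DESeq2 1.42.0, limma 3.58.1 voom, scaling by RLE, by the upper quartile or by totals alone, and no filter or a mean of at least 50 counts. The others were no robust estimation, a replicate block, a regional offset from the 50 nearest genes, and leaving out each library. Levels per kilobase and family shares were recomputed with the longest transcript as length, the shares after seeing the data. Ranks, neighbour counts, marker sums and permutation tests came from the main fit and scaling only. Figures used Python 3.11.15 and matplotlib 3.10.9.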

Additional observations from a re-analysis of the deposited data

Results flagged for a closer look

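Dixon's test for a lone extreme library was applied within groups of 4. It marked 2 of 31 sets of values, and about 1 in 20, or 1.55, would be marked by chance. Both were in control replicate 3. The summed level of the SOX members was 62.2 CPM per kilobase there, against 58.9 to 59.4 in the other controls (gap ratio 0.852). The share of SOX4 in that sum was 23.6%, against 25.0% to 25.1% (gap ratio 0.933). The same library lay at -40.1 on the second principal component of all genes, where the other controls lay between 9.52 and 16.3. Its part in these values was not tested.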

How the results depend on the processing

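Over 18 alternatives the count of genes called ran from 10279, with a mean of at least 50 counts required, to 15028 without a filter, and between 12494 and 12865 when each library was left out. All 7 tested SOX genes kept their direction wherever they could be tested. SOX9, SOX11, SOX12, SOX13, SOX7 and SOX6 stayed past the threshold in every alternative that tested them, and SOX4 in 17 of 18. The exception was the regional offset, which put SOX4 at 0.0521 on the log2 scale (edgeR adjusted p of 0.207, range over alternatives 2.29e-06 to 0.207). With a mean of at least 50 counts required only 4 members were tested, and all 4 were called, since SOX6, SOX7 and SOX11 fell below that minimum. Leaving out each library kept SOX6 between 1.04 and 1.71, SOX7 between -1.25 and -0.95, SOX9 between -4.55 and -4.14 and SOX11 between -3.31 and -3.01. Over all 18 alternatives SOX12 ran from 0.45 to 0.63 and SOX13 from -0.44 to -0.28. Deviations of same-numbered libraries correlated between -0.031 and 0.056, and those of differently numbered libraries between -0.041 and 0.051. So no strong effect shared by number was seen, but this cannot tell whether libraries were handled in pairs. With a replicate block 12453 genes and all 7 members were called, with SOX4 at 0.16 and SOX6 at 1.30.

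The length used sets levels per kilobase. With the longest transcript SOX6 was at 0.0489 in control and 0.119 in knockdown, and SOX13 at 59.5 and 46.2. The family sum was then 90.7 and 82.8, with shares of 16.3% and 20% for SOX4, 15.5% and 23.7% for SOX12, 65.65% and 55.77% for SOX13, and 2.08% in control for SOX9. Depth limits SOX2, SOX8 and, in knockdown, SOX11, which lay at or near 3 counts per library.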

Other observations

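Long noncoding genes at the SOX9 and SOX2 loci were looked at after their counts had been seen. SOX9-AS1 gave 10, 10, 12 and 7 counts across the controls, replicates 1 to 4, against 13, 5, 6 and 5 across the knockdown replicates. The ratio of its summed counts was 0.735 (95% exact interval 0.438 to 1.22, counting error only), against 0.0499 for SOX9 (interval 0.0340 to 0.0707). SOX2-OT, which spans SOX2 on the same strand, had 5, 4, 3 and 4 counts in control and 3, 1, 2 and 0 in knockdown, while SOX2 had 2 counts over the control and 14 over the knockdown libraries. Neither noncoding gene passed the filter on low counts.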
